A study of Mus musculus with 4 samples.

Results

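Actin stress fibres are contractile bundles in cultured fibroblasts. They hold actin filaments together with myosin II and its light chains, are stabilised along their sides by tropomyosins and caldesmon, and end at focal adhesions where vinculin and zyxin sit. Serum response factor, SRF, is a transcription factor that binds a DNA element called the CArG box and, with actin-sensing cofactors, drives many genes of this machinery. Loss of stress fibres is a textbook feature of transformed fibroblasts. The genes described here are Srf, Acta2, Pfn1, Tpm2, Tpm4, Cald1, Myl12a, Vcl, Zyx and Vim, which were chosen by symbol for their place in this system. The choice was made with earlier results of these data known, so these genes are not an unselected set. All 10 of them were measured, out of 9930 genes named on the array and 6327 with a value on every array.

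RNA was compared between mouse NIH3T3 cells, an established embryonic fibroblast line, that had been transfected with Erbb2 and overexpressed it, and untransfected NIH3T3 cells with normal Erbb2 expression. Erbb2 encodes a receptor tyrosine kinase. Neither the promoter of the transgene nor the number of clones is stated in the labels. Each of 4 two-colour cDNA arrays set both lines against each other, with the transfected line in Cy5 on arrays 1 and 2 and in Cy3 on arrays 3 and 4. The series calls these arrays technical replicates, so there was 1 biological sample per line. Every SD, interval and p-value below therefore covers the spread between hybridisations and not between cultures.

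Values are log2 ratios of the transfected over the untransfected line, so -1 means a 2-fold lower signal in the transfected line. That direction is likely but not stated in the labels. It rests on the dyes and on ratios at the upper limit of the scale, which lay only above 0 on arrays 1 and 2 and only below 0 on arrays 3 and 4. All signs would turn together if it were wrong on every array. Were it wrong on arrays 3 and 4 only, 0 of the 10 genes would have 1 sign on all arrays in place of 3, and 12.3% of all genes in place of 22.6%, and the means and list medians below would not hold. Arrays had a value for 76.8% to 94.6% of spots. Ratios of 2 arrays correlated weakly across genes, which are not independent replicates, with Pearson's r from 0.12 to 0.20. Erbb2 itself had no named probe, and the labels could not be checked against it. Ratios give no level, so the cell type could not be checked for absent markers. Of the fibroblast markers, 6 of 9 were tested and had means from -4.91 to 0.89.

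The 10 genes did not shift as a block. Cald1 and Pfn1 had ratios below 0 on all 4 arrays and Vim had ratios above 0 on all 4. Thus 2 of 10 genes lay below 0 throughout, against 13.0% of all genes tested, and 1 of 10 above 0 throughout, against 9.58% (3 of 10 with 1 sign, against 22.6%). These shares are near the background. Of the 10 means 7 were below 0, against 56.1% of all genes, and their median was -0.46, against -0.082 for all genes. An SD above 1 was found for 2 of the 10, Tpm2 and Vcl, against 30.3% of all genes. Without array 1 the median of the 10 was -0.21. Here and below, values without 1 array weigh both dye orientations equally, so they are not plain means of the arrays left. On single arrays 6, 6, 5 and 6 of the 10 genes lay below 0, against 44.8%, 50.5%, 56.0% and 58.8% of all genes.

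None of the 10 passed limma's test at a Benjamini-Hochberg adjusted p under 0.05, and neither did any other gene (0% of 6327; smallest adjusted p = 0.105). At an unadjusted p under 0.05 there was 1 of the 10, Cald1, against 11.5% of all genes (7.49% lower and 4.05% higher). A mean of -1 or less was reached by 1 of the 10, Tpm2, against 7.70% of all genes. A mean of 1 or more was reached by none of the 10, against 3.87% of all genes.

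**Figure D1:**
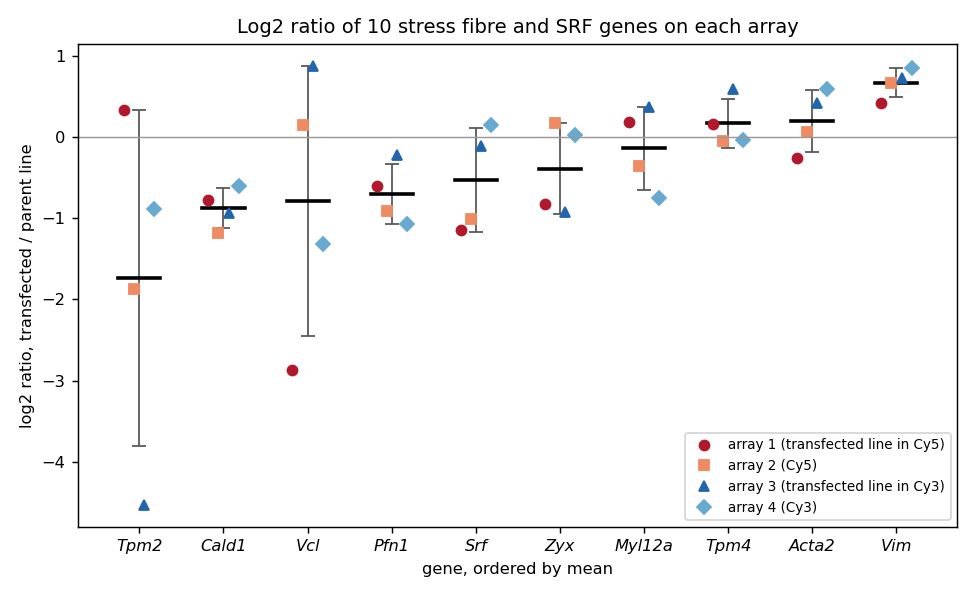
Log2 ratio of the transfected over the untransfected line (vertical axis) for each of the 10 genes (horizontal axis, ordered by mean), with 1 point per array, the mean as a black line and the SD over 4 arrays as a bar. Vim lies above 0 and Cald1 and Pfn1 below 0 on every array, while Tpm2 and Vcl spread over more than 3 log2 units.

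Promoters were searched for the CArG box because the SRF genes share it as a known control element. Windows from 250 bases before to 50 bases after the gene start came from RefSeq (build GRCm38.p6), and all 10 genes had at least 1, with 11 windows in all. The CArG box is CC, then any 6 of A or T, then GG, and it reads alike on both strands. It was found in the windows of Srf and Vcl, that is in 2 of 11 windows, against 1.63% of all 32851 windows. A form with a C or G at exactly 1 of the 6 middle positions was found in Acta2 and Myl12a, against 8.50% of all windows. Among windows of the other actin and SRF system genes listed below, 16 of 150 held the box (10.7%) and 13.3% held that form. The 4 windows that hold either form are printed 5′ to 3′ with the motif letters in capitals.
Srf (chr17:46556113-46556412, minus strand): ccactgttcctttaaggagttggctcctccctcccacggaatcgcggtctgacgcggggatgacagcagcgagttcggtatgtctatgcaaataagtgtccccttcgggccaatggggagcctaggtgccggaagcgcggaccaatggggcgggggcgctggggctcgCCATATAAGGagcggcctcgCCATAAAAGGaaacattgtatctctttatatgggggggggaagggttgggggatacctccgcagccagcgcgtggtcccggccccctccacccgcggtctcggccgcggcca
Vcl (chr14:20929148-20929447, plus strand): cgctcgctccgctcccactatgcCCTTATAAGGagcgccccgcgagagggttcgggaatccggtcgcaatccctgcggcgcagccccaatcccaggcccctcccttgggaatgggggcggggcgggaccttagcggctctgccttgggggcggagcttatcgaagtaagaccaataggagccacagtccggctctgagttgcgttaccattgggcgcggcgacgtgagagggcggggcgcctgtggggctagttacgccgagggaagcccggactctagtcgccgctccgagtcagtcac
Acta2 (chr19:34255324-34255623, minus strand): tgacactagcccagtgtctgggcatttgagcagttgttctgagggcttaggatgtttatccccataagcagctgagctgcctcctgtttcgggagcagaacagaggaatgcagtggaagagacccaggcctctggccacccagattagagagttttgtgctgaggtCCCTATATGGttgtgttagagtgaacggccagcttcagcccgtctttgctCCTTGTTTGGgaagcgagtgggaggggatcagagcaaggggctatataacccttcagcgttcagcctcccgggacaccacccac
Myl12a (chr17:71002484-71002783, minus strand): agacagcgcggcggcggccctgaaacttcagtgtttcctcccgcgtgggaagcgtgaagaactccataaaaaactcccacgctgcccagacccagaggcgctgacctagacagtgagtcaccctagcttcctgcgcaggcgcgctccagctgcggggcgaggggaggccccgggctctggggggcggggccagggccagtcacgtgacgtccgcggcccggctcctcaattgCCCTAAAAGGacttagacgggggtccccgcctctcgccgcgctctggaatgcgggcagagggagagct
Srf thus holds a pair of boxes, whose first bases lie 82 and 62 bases before the start, and Vcl holds 1 at 227 bases. The near forms of Acta2 start 84 and 34 bases before the gene start, and that of Myl12a 18 bases. A match is a match of letters only.

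Srf, which encodes the transcription factor itself, had log2 ratios of -1.15, -1.01, -0.12 and 0.14 on arrays 1 to 4. Both arrays with the transfected line in Cy5 were low and both with it in Cy3 were near 0. The mean was -0.54 ± 0.64 (SD, n = 4 arrays; limma, adjusted p = 0.511), with -1.08 in the Cy5 orientation and 0.01 in the Cy3 orientation. The dye term did not pass for Srf (limma, adjusted p = 0.868) or for any other gene (0% of all genes). Srf had 2 probes in distant parts of the table, with means of -0.64 and -0.43, and both showed this split by orientation.

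Acta2 encodes smooth muscle actin, which activated fibroblasts build into stress fibres. Its ratios were -0.27, 0.06, 0.41 and 0.59, so array 1 lay below 0 and the others above. The mean was 0.20 ± 0.38 (limma, adjusted p = 0.792), and the 95% interval from limma ran from -0.51 to 0.90. Without array 2 the mean was 0.12. A 2-fold difference either way lay outside that interval, which covers the spread between hybridisations only. The interval does not bound the difference between cultures of the lines. The 2 probes of Acta2 had means of 0.02 and 0.48. On array 1 they differed in sign, at -1.13 and 0.59.

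The other actin genes measured lay on the same side of 0 as Acta2 on each array. Actb and Actg1, the cytoplasmic actins, had means of 0.23 ± 0.61 and 0.81 ± 0.68, Actg2 had 0.19 ± 0.34 and Actc1 had 0.10 ± 0.58. All 5 actin genes lay below 0 on array 1 and above 0 on arrays 2 to 4, a pattern found in 4.65% of all genes. The pattern was picked out after the values were seen. Actin genes are close in sequence, and whether the probes told them apart was not tested.

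Pfn1 encodes profilin, which delivers actin monomers to growing filament ends. It had ratios of -0.61, -0.91, -0.22 and -1.07, all below 0. The mean was -0.70 ± 0.37, a 1.63-fold lower signal (limma, adjusted p = 0.470), and the 95% interval ran from -1.48 to 0.07. The orientations were alike, with means of -0.76 in Cy5 and -0.64 in Cy3. Pfn1 rests on 1 probe with values on all arrays. Another lay in rows that were left out, and on array 1, whose rows were not moved, it read -0.72.

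Cald1 encodes caldesmon, which binds actin, tropomyosin and myosin along the filament. Its ratios were -0.78, -1.19, -0.94 and -0.61, all below 0. The mean was -0.88 ± 0.25, a 1.84-fold lower signal, with a limma unadjusted p of 0.0255 and an adjusted p of 0.387. The 95% interval, from -1.60 to -0.16, did not reach 0, but it is not adjusted for the number of genes. The 2 probes behind this mean were less alike than the mean shows. That in the first 6000 rows had -1.83, -1.37, -0.79 and -1.48. The other had 0.28, -1.01, -1.09 and 0.26, so it lay above 0 on arrays 1 and 4. A further probe in the left-out rows read -1.68 on array 1.

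The tropomyosins Tpm2 and Tpm4, which wrap along actin filaments, differed from each other. Tpm2 had the mean furthest from 0 of the 10 genes and also the widest spread, with ratios of 0.34, -1.88, -4.53 and -0.89. Array 1 was above 0 and array 3 far below the rest. The mean was -1.74 ± 2.07, so the SD exceeded the mean (limma, adjusted p = 0.443). With both orientations weighed equally, it was -0.83 without array 3, -1.19 without array 2, -2.29 without array 1 and -2.65 without array 4 (limma, adjusted p = 0.191 for the last). The array 3 value joins 2 probes, at -2.58 and -6.48. All 3 Tpm2 probes lay above 0 on array 1, at 0.03, 0.78 and 0.20, and below 0 on every other array with a value.

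Tpm4 had ratios of 0.16, -0.05, 0.59 and -0.04. Its values near 0 on arrays 1, 2 and 4 average probes of opposite sign. These read -0.15 and 0.47 on array 1, 0.51 and -0.61 on array 2, and 0.58 and -0.67 on array 4. On array 3 the second probe had no value, so 0.59 rests on the first alone. The Tpm4 mean was 0.16 ± 0.30 (limma, adjusted p = 0.836), with a 95% interval from -0.57 to 0.90. It was 0.0058 without array 3 and 0.32 without array 4. Its 2 probes went opposite ways, with means of 0.38 and -0.27. Tpm1, another tropomyosin gene, lay below 0 on all 4 arrays, at -0.007 on array 3, with a mean of -0.33 ± 0.29. The difference between Tpm2 and Tpm4 was not tested.

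Myl12a encodes a regulatory light chain of non-muscle myosin II. It had ratios of 0.18, -0.36, 0.37 and -0.75, on both sides of 0 in each orientation. The mean was -0.14 ± 0.51 (limma, adjusted p = 0.884). It was -0.28 without array 1, -0.0053 without array 2, -0.42 without array 3 and 0.14 without array 4. Its 3 probes, all in the first 6000 rows, had means of 0.24, -0.33 and -0.55. Myl12b, a near-identical light chain gene, had -0.11 ± 0.30. The 2 genes are so alike that cross-hybridisation could join them, which was not tested.

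**Figure D2:**
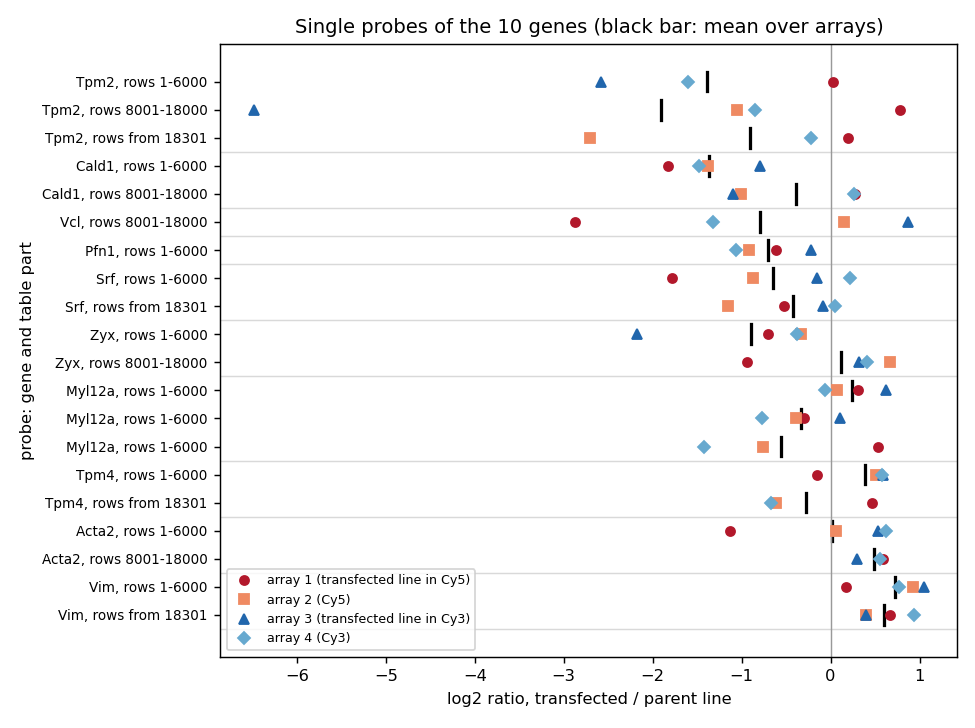
Log2 ratios (horizontal axis) of each of the 20 probes used, listed by gene and by their part of the table (vertical axis), with 1 symbol per array and a black bar for the probe mean. Both Vim probes lie above 0 on every array, and 1 Tpm2 probe further down the table reaches -6.48 on array 3.

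Of the focal adhesion genes, Vcl encodes vinculin, which links integrin complexes to actin. It had ratios of -2.87, 0.15, 0.87 and -1.32, so 2 arrays lay on each side of 0 and each orientation held 1 of each. The mean was -0.79 ± 1.66 (limma, adjusted p = 0.652). With both orientations weighed equally, leaving out array 1 moved it to -0.037, array 2 to -1.55, array 3 to -1.34 and array 4 to -0.25. Vcl had a single probe, so its spread could not be set against another.

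Zyx encodes zyxin, a LIM protein of adhesions and stress fibres. It had ratios of -0.82, 0.16, -0.93 and 0.02, with arrays 1 and 3 low and arrays 2 and 4 near 0. The mean was -0.39 ± 0.56 (limma, adjusted p = 0.679). It was -0.15 without array 1, -0.16 without array 3, -0.64 without array 2 and -0.63 without array 4. Its 2 probes had means of opposite sign, -0.90 in the first 6000 rows and 0.11 further down.

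Vim encodes vimentin, the intermediate filament protein of fibroblasts. It had ratios of 0.42, 0.67, 0.72 and 0.85, the smallest spread of the 10 genes. The mean was 0.66 ± 0.18, a 1.59-fold higher signal, with 0.54 in the Cy5 and 0.79 in the Cy3 orientation. Limma gave an unadjusted p of 0.0586 and an adjusted p of 0.455, since its variance is drawn towards that of all genes, and the 95% interval ran from -0.03 to 1.36. Both probes of Vim were above 0 on all 4 arrays, with means of 0.73 and 0.60. They stand in parts of the table that were lined up with different row offsets.

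Across the 8 genes with 2 or more probes, probe means had 1 sign in 5 (Srf, Cald1, Tpm2, Acta2 and Vim) and opposite signs in 3 (Zyx, Tpm4 and Myl12a). Probe means of a gene differed by 0.13 (Vim) to 1.01 (Zyx). For Zyx, Tpm4, Myl12a, Cald1 and Acta2 this exceeds the distance of the gene mean from 0. Probe means of Tpm2, Tpm4, Acta2 and Myl12a cover partly different arrays, because 5 probe values were missing. Read as deposited, with no row offset and with the left-out rows taken in, the table gave other means. They were 0.21 for Vim, -0.33 for Srf, -0.43 for Pfn1 and -0.24 for Tpm2, each nearer to 0 than the mean given above. The table as deposited gave -1.24 for Zyx, -1.06 for Cald1, 0.51 for Tpm4 and 0.29 for Acta2, each further from 0. All 8 kept their sign. Myl12a kept its mean, and Vcl was not tested with rows as deposited. The left-out rows hold a further probe each of Pfn1 and Cald1. The only Pfn1 probe otherwise used lies in rows that take no offset, so the change for Pfn1 came with the left-out rows.

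**Figure D3:**
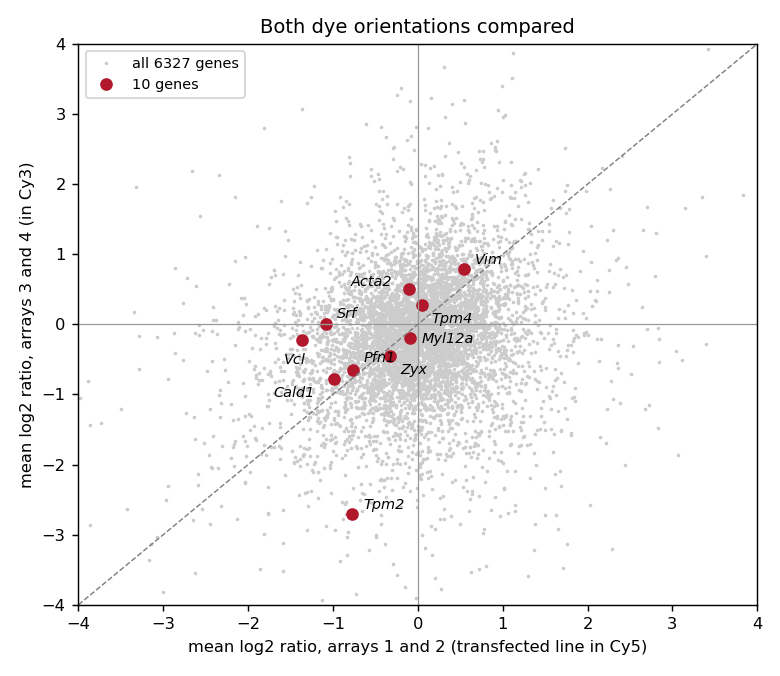
Mean log2 ratio on arrays 1 and 2, with the transfected line in Cy5 (horizontal axis), against the mean on arrays 3 and 4, with it in Cy3 (vertical axis), for the 10 genes (red) and all 6327 genes (grey; 20 genes lie outside the limits of 4 log2 units). Vim, Cald1, Pfn1, Myl12a, Zyx and Tpm4 lie near the dashed line of equal means. Single arrays of Myl12a, Zyx and Tpm4 nonetheless lie on both sides of 0. Srf, Vcl and Acta2 are lower in the Cy5 orientation and Tpm2 is lower in the Cy3 orientation.

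Other genes of the actin and SRF system were grouped into 5 lists, also with earlier results of these data known. Together they held 66 tested genes beside the 10, with a median of -0.15, against -0.082 for all genes. Of these, 17 lay below 0 and 6 above 0 on all 4 arrays, against 13.0% and 9.58% of all genes, and 0 passed limma. At an unadjusted p under 0.05 there were 14 of the 66, 11 lower and 3 higher, against 11.5% of all genes, 7.49% lower and 4.05% higher.

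Focal adhesion proteins had a median of -0.46 over 16 tested genes, the lowest of the 5 lists with these settings. With genes measured on at least 3 arrays it was -0.23, against -0.25 for myosin II and its regulators, and without array 2 it was -0.41, against -0.47, so the order of these lists is not settled. Below 0 on all 4 arrays were 7 of 16 (13.0% of all genes), and the same 7 had an unadjusted p under 0.05 on the lower side (7.49% of all genes), while 0 were above 0 throughout. Arhgap31, which encodes a GTPase-activating protein for Cdc42 and Rac1, had a mean of -3.37 ± 2.12, with -4.74 and -5.61 in the Cy5 and -1.50 and -1.61 in the Cy3 orientation. The integrin gene Itgb5 had -1.62 ± 1.34, the adaptor gene Crk -1.29 ± 0.72, Enah, which encodes an actin filament elongation factor, -1.16 ± 0.90 and Sorbs3, which encodes the vinculin-binding vinexin, -1.02 ± 0.32. Ablim1 (-0.99 ± 0.43) and Lpp (-0.79 ± 0.44), the latter a relative of zyxin, complete the 7. Itgb1, the main fibronectin receptor chain, had -0.12 ± 0.12. The list's median was -1.13 in the first 6000 rows (6 genes) and -0.041 in the rows beyond 8000 (12 genes), where the myosin II list had -0.21.

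Actins and actin-binding proteins had a median of 0.09 over 20 tested genes, and it was -0.17 without array 2. Of these, 4 lay below 0 on all arrays and 3 above (13.0% and 9.58% of all genes). Gsn encodes gelsolin, which severs and caps filaments, and had -2.57, -2.60, -2.39 and -1.89. Its mean was -2.36 ± 0.33, a 5.14-fold lower signal (limma, adjusted p = 0.161), further from 0 than any of the 10 genes and with little spread. The bundling protein gene Fscn1 had -2.45 ± 1.39. On the other side were the capping protein gene Capg (1.66 ± 0.82) and the actin monomer-binding thymosin gene Tmsb4x (1.63 ± 1.73), whose array 1 value of 4.17 stood apart from 0.50 to 1.23 elsewhere.

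SRF cofactors and targets had a median of -0.22 over 18 tested genes, with 6 below 0 and 2 above 0 on all arrays (13.0% and 9.58% of all genes). The median was -0.54 in the first 6000 rows and 0.21 in the rows beyond 8000. The matricellular genes Ccn1 and Ccn2 had -2.35 ± 1.87 and -1.72 ± 1.24. Ccn1 read -4.59 and -3.19 in the Cy5 and -0.76 and -0.86 in the Cy3 orientation. Ccn2 read -0.09 on array 3 and -3.06 to -1.58 on the others. Fosb, an AP-1 subunit gene, had -1.18 ± 1.15, and Junb, another, -0.39 ± 0.21. The LIM protein gene Fhl1 had -0.62 ± 0.63. These 5 and Tpm1 are the 6 below 0 on all arrays. Some of their values lay close to 0. Fosb read -0.005 on array 1, Tpm1 -0.007 on array 3, and Fhl1 -0.087 and -0.0845 on arrays 1 and 2. The 2 above 0 throughout were Csrp2, another LIM protein gene, with 0.77 ± 0.68, and the immediate early gene Ier3, with 0.80 ± 0.52 (limma, unadjusted p = 0.0353, adjusted p = 0.416). Jag1, which encodes a Notch ligand, had the highest mean of the list, 1.15 ± 1.49, with array 2 below 0. Genes with a CArG box in the promoter window numbered 84 among all tested genes that had a window. Their median was -0.063, and 8.33% of them lay below 0 on all arrays. Without a box these values were -0.083 and 13.2% over 5054 genes.

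Myosin II and its regulators had a median of -0.29 over 8 tested genes, of which 0 had 1 sign on all arrays (22.6% of all genes). It was -0.069 without array 3, -0.12 without array 1 and -0.47 without array 2. Mylk, the myosin light chain kinase gene, had -0.62 ± 1.30 and Rock1, which encodes a kinase that promotes myosin II activity, -0.33 ± 1.19. Intermediate filament genes had a median of 0.23 over 8 tested genes, which was -0.14 with rows as deposited, 0.45 without array 1, 0.15 without array 2 and 0.14 without array 4. On all arrays 1 lay below 0 (13.0% of all genes; Plec, the cytolinker plectin, -0.66 ± 0.22) and 1 above (9.58%; Lmnb2, a nuclear lamin, 0.48 ± 0.44). Des, the muscle counterpart of Vim and the only smooth muscle marker tested, had 0.11 ± 0.99.

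**Figure D4:**
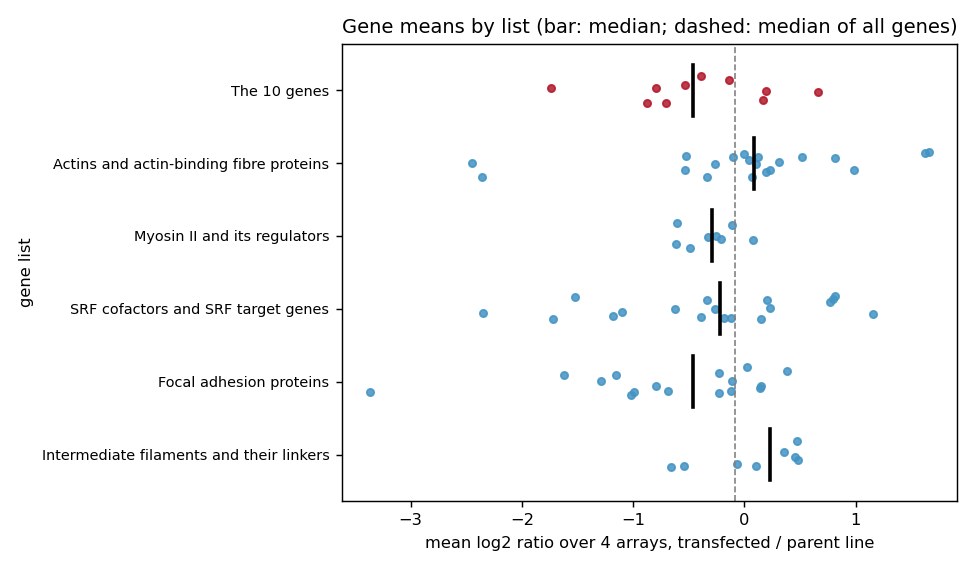
Mean log2 ratio over 4 arrays (horizontal axis) of each tested gene, by list (vertical axis), with the list median as a black bar and the median of all genes as a dashed line. The 10 genes and the focal adhesion proteins have medians of -0.46, and the other list medians lie between -0.29 and 0.23.

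The genes nearest to Tpm2 in their 4 array values, by Euclidean distance in log2 units, were Celsr1 (0.97), Dbp (1.01) and Otud7a (1.15). All 3 had a low value on array 3, between -4.84 and -4.57, and values from -1.74 to 0.75 on the others. The low array 3 follows from how they were picked, since Tpm2 is low there.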

How the data were processed

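Per the deposited table, each value is a log2 ratio of the 2 dyes, a scale read from the values themselves. How images were read, corrected for background and normalized is not given in the sources used here. Members and lists were chosen with earlier results of these data known. Of 20355 spots, 14030 had 1 gene symbol in the platform annotation and 5 had several. Values beyond 15 were dropped as capped ratios. The columns of arrays 2 to 4 are out of step with array 1 further down the table, so they were read 3 rows higher between rows 8000 and 18000 and 4 rows higher from row 18301. With these offsets the mean Pearson correlation of array 1 with the others was 0.092 and 0.121 (0.110 in the first 6000 rows). As the rows stand it was -0.005 and -0.009. It was taken across spots, with each array centred and scaled and extreme values clipped, unlike the correlations across genes above. Rows in between were left out, although the columns lined up just before row 8000 when moved by 1 row (mean correlation 0.120). These correlations do not show whether array 1 or the other arrays match the gene names. Array 1 was taken as matching beyond row 8000, which was not tested.

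Probes were averaged per gene, and genes with a value on 4 arrays were fitted with limma 3.58.1 (R 4.3.3), with a mean and a dye term. Intervals are 95% intervals from that fit. The limma fit was tested on simulated data. The alternatives were no dye term, centred or scaled arrays, at least 3 arrays, other rows, capped ratios kept, median or single probes, robust variances and leaving out each array. Lists got no test, and 1 planned list is not reported here. All 10 members were named, and in each list up to 6 genes with 1 sign on 4 arrays and a mean at least 1 from 0, largest first, and the 3 genes nearest to the member with the mean furthest from 0. Further list genes were named after their values were seen. The number of arrays limits the precision.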

Additional observations from a re-analysis of the deposited data

Results flagged for a closer look

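Of 31 sets of 4 array values checked, 1 had an array far from the other 3, where chance flags about 1 in 20. The set past the cut was that of Otud7a, with -4.57 on array 3 and -1.04 to -0.32 elsewhere (gap over range 0.830). Otud7a was named for its closeness to Tpm2, which is itself low on array 3, so a low array 3 was selected for. None of the 10 genes described here passed that cut. The widest gap over range among them was 0.681, for Tpm4, whose array 3 value rests on a single probe. Tpm2, with array 3 far below its other values, had 0.545.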

How the results depend on the processing

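Analysis of the rows beyond 8000 by themselves was added after the data were seen. Of 133 values of the 10 genes under other settings, 131 kept their sign and 0 passed limma. The exceptions were Myl12a without array 4 (0.14, in a range of -0.42 to 0.14 without 1 array) and Zyx in the rows beyond 8000 (0.11). Part of this agreement was fixed in advance. With no dye term, robust variances, at least 3 arrays or capped ratios kept, each of the 10 genes had its main mean again. The median of probes could differ from the mean only for Tpm2 and Myl12a, which have 3 probes each. The count of the 10 genes passing limma was 0 in every setting run. Over all genes it was 6 when the dye term was dropped, 6 with probes kept apart, and 3 with arrays scaled to a common spread or with the median of probes. Genes below 0 on every array were 0 in the rows beyond 8000 (6 genes tested), and 2 to 3 when 1 array was left out. Those above 0 on every array were 0 with rows as deposited, 2 of 15 probes with probes kept apart, and 1 to 2 when 1 array was left out. The median of the 10 means ran from -0.60 to -0.21 without 1 array. In the rows beyond 8000 the SRF list's median was 0.21. The actin list had -0.17 to 0.30 without 1 array and the intermediate filament list -0.14 with rows as deposited. The cause was not tested. Each ratio already pairs both lines on 1 array, so the fit was paired by array throughout. The lines may differ in more than Erbb2, and such differences cannot be told apart here.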
